A study of Rattus norvegicus with 6 samples.

Results

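Reactive astrocytes of the infarcted rat brain that carried Cd44, Vim, Cald1, Sema3c or Ccl2 were taken from single-nucleus RNA sequencing of 6 libraries. A nucleus was included if it held at least 500 UMIs (unique molecular identifiers, counts of single RNA molecules), 250 to 5000 genes and at most 5% mitochondrial UMIs. It also needed at least 5 UMIs, and at least 0.6% of its UMIs, from the astrocyte genes Slc1a2, Slc1a3, Aqp4, Gja1 and Gfap, at most 3 UMIs of the neuron genes Snap25, Syt1 and Rbfox3, and at most 1 UMI of Cp and A2m, which mark another reactive astrocyte state. Nuclei with 2 or more UMIs summed over Cd44, Sema3c, Cald1, Ccl2 and Vim are called Cd44/Vim astrocytes here, and those with 0 or 1 are called other astrocytes. The nuclei were thus chosen by their measured UMIs of these 15 genes, so the levels of the gate genes are a description and were left out of every test. The gate held 203 of 73649 nuclei within the limits, of which 1495 passed the astrocyte and neuron gates.

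All libraries came from brains of male WT rats aged 12 weeks, taken 48 h after surgery. The right middle cerebral artery was occluded permanently with a filament (MCAO) in 7 rats, which the study divided by lesion size into 3 rats with moderate (mMCAO) and 4 with severe infarctions (sMCAO), and 4 Sham rats had the surgery without the filament. Nuclei of all rats of a group were pooled, and the hemispheres were kept apart, which gave Sham L and Sham R, mMCAO contra and sMCAO contra (left), and mMCAO ipsi and sMCAO ipsi (right, infarcted). Each library is therefore 1 sample of pooled animals, the libraries of a hemisphere pair share their rats, and severity has 1 library a level. The files held 33012945 to 52513380 UMIs per library in 8774 to 14508 nuclei.

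Astrocytes clear glutamate and potassium from the extracellular space, supply neurons with metabolites and wrap blood vessels with their end-feet. After ischemia they enlarge, fill with the intermediate filaments Gfap, Vim and Nes, and some divide and build a border around the lesion. Cd44 is a receptor for hyaluronan and osteopontin, Cald1 (caldesmon) binds actin and tropomyosin, Sema3c is a secreted guidance cue, and Ccl2 is a chemokine that attracts monocytes.

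Cd44 and Vim carried most of the gate. Cd44 was found in 55 of 63 Cd44/Vim astrocytes of mMCAO ipsi and in 102 of 133 of sMCAO ipsi, and Vim in 35 and 102. Cald1 was found in 22 and 67 nuclei, Sema3c in 10 and 33, and Ccl2 in 5 and 37. Ccl2 and Sema3c, for which this state has been named, were thus present in a minority, and no nucleus reached the gate on Ccl2 or on Sema3c alone. The pair Cd44 and Vim was detected together in 27 and 79 nuclei, all 5 genes together in 0 and 12, and Cd44 was present in 36 of the 37 sMCAO ipsi nuclei with Ccl2. The summed UMIs of the 5 genes had a median of 3 in mMCAO ipsi and 6 in sMCAO ipsi, and 22 and 74 nuclei had 5 or more. Gfap, which the reactive part of the gate did not use, was detected in 95.2% of the mMCAO ipsi and 98.5% of the sMCAO ipsi nuclei, against 80.1% and 77.1% of the other astrocytes of the same libraries, 25.0% and 47.3% in mMCAO contra and sMCAO contra, and 12.5% and 15.4% in Sham L and Sham R. The glutamate transporter Slc1a2 stood at 5043 and 4252 CPM (the UMIs of a gene scaled to a common total of all UMIs of the summed nuclei) in Cd44/Vim astrocytes, at 7876 and 6520 CPM in the other ipsi astrocytes and at 9787 and 9502 CPM in Sham. Gfap and Slc1a2 are both in the astrocyte part of the gate, and the percentages of nuclei compare states of unequal depth.

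**Figure D1:**
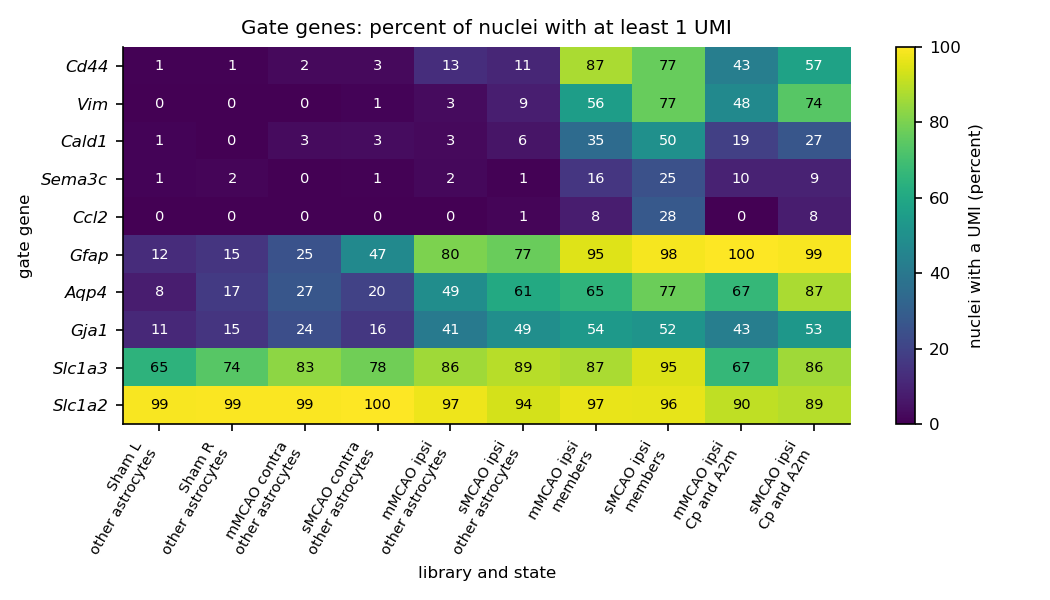
Percent of nuclei with at least 1 UMI of each gate gene (rows) in other astrocytes of all 6 libraries, Cd44/Vim astrocytes (members) of the MCAO ipsi libraries and astrocytes with 2 or more UMIs of Cp and A2m (columns), with the percent printed in each cell. Cd44 and Vim were the most frequent reactive gate genes in the members, and Ccl2 was found in 7.94% and 27.8% of them.

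The state was almost confined to the 2 MCAO ipsi libraries. It made up 63 of 310 astrocytes in mMCAO ipsi (20.3%, exact Clopper-Pearson 95% interval 16.0 to 25.2%) and 133 of 400 in sMCAO ipsi (33.2%, 28.6 to 38.1%). In mMCAO contra it was 5 of 286 astrocytes (1.75%, 0.570 to 4.03%), in sMCAO contra 1 of 191 (0.524%, 0.0133 to 2.88%) and in Sham L 1 of 177 (0.565%, 0.0143 to 3.11%). Sham R had 0 of 131, which allows a share of up to 2.29% by a limit of 3 nuclei over the total and 2.78% by the exact interval. The ipsi libraries lay above all 4 others, and their intervals did not overlap those of the others. Of all nuclei within the limits, Cd44/Vim astrocytes were 0.487% in mMCAO ipsi and 1.53% in sMCAO ipsi and at most 0.0345% elsewhere. With 2 libraries a group, an exact permutation test cannot reach a two-sided p of 0.05, so no test was run, and the intervals cover counting error only.

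**Figure D2:**
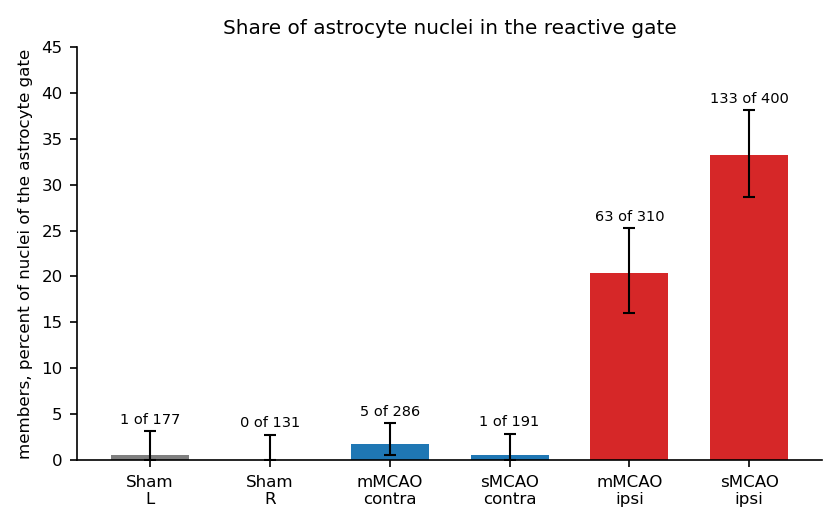
Cd44/Vim astrocytes as percent of the nuclei of the astrocyte gate in each of the 6 libraries, with exact 95% binomial intervals as error bars and the counts above the bars. The bars of mMCAO ipsi (63 of 310) and sMCAO ipsi (133 of 400) stand above those of the Sham and contra libraries, which hold 7 such nuclei in all.

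Astrocyte nuclei of the ipsi libraries also held more UMIs, although sMCAO ipsi had the lowest total of all libraries and the lowest median over all its nuclei (2045.5 UMIs, against 2272 to 3363.5 in the others). Cd44/Vim astrocytes held a median of 1637 UMIs in mMCAO ipsi and 3323 in sMCAO ipsi, the other astrocytes of these libraries 1200.5 and 1778, those of mMCAO contra and sMCAO contra 1021 and 880.5, and those of Sham L and Sham R 765.5 and 606.5. Each nucleus was then thinned to 1000 UMIs and gated again, so that nuclei could enter the astrocyte gate as well as leave it. The gate then held 243 and 404 astrocytes in the ipsi libraries, against 310 and 400 before, but only 25 and 10 in Sham L and Sham R. The share was 20.2% in mMCAO ipsi and 24.3% in sMCAO ipsi. In mMCAO contra it was 1.90% (3 of 158, exact 95% interval 0.393 to 5.45%) and in sMCAO contra 1.43% (1 of 70, 0.0362 to 7.70%). It was 0 in both Sham libraries, where the exact interval reaches up to 13.7% and 30.8%. The ipsi libraries stayed above the contra libraries. The gap between moderate and severe infarction was smaller, although the nuclei were not the same as before thinning. Neurons, which should lack this state, had 2 or more UMIs of the 5 genes in 0.885% to 3.10% of nuclei thinned in the same way, mostly from Cald1 (6.62% to 9.05% of neurons) and Sema3c (2.93% to 7.17%). Their shares for Cd44 (0.187% to 0.797%), Vim (0.0391% to 0.885%) and Ccl2 (0 to 0.531%) were lower. The ipsi shares lay above those of all neurons. The contra shares lay above those of the neurons of their own libraries (1.15% and 0.885%), but these neuron shares lay within the intervals of the contra astrocytes, so that a difference from background was not detectable at this depth. Before thinning, 3 of the 5 nuclei of mMCAO contra carried Cd44, and the nucleus of sMCAO contra carried Cd44 and Vim.

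At the border of the gate the homeostatic level fell with each further UMI of the 5 genes, while the actin level did not rise at every step. In mMCAO ipsi, 48 nuclei had 1 UMI of the 5 genes, 20 had exactly 2 and 12 exactly 3, and in sMCAO ipsi these were 38, 30 and 20. The summed level of 29 homeostatic astrocyte genes was 31169 CPM at 1 UMI, 30424 CPM at 2, 27171 CPM at 3 and 22718 CPM at 4 or more in mMCAO ipsi, and 30183, 26759.7, 25921 and 20296 CPM in sMCAO ipsi. The actin cytoskeleton list stood at 4109, 4908, 5239 and 6198 CPM in mMCAO ipsi and at 4164, 5133, 4576 and 8290 CPM in sMCAO ipsi. These values are a description of a threshold on a continuous scale and carry no test.

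Markers of other cell types were present at low summed levels. Yet 10 of 63 Cd44/Vim astrocytes of mMCAO ipsi and 71 of 133 of sMCAO ipsi held 2 or more UMIs of microglial, endothelial or mural markers. Other nuclei of the astrocyte gate held such UMIs as well. Without all these nuclei the gate fell from 310 to 254 astrocytes in mMCAO ipsi and from 400 to 221 in sMCAO ipsi. The share of Cd44/Vim astrocytes went from 20.3% to 20.9% and from 33.2% to 28.1%. Microglia and macrophage markers summed to 286 CPM in mMCAO ipsi (11 of 21 genes with a UMI) and 360 CPM in sMCAO ipsi (16 of 21), against 364 and 386 CPM in the other astrocytes, with Lyn as the most abundant gene and P2ry12 and Trem2 at 0 in both. Pericyte, mural and fibroblast markers summed to 134 and 374 CPM (6 and 10 of 16 genes, Myh11 the most abundant, Kcnj8, Abcc9, Dcn and Lum at 0 in both), against 347 and 347 CPM in the other astrocytes. In sMCAO ipsi 26.3% of the Cd44/Vim astrocytes held 2 or more UMIs of them, against 13.6% of the other astrocytes, which had fewer UMIs per nucleus. Endothelial markers gave 92.5 and 24.8 CPM (5 and 6 of 9, led by Ptprb and Pecam1, Cdh5 and Emcn at 0 in both), against 47.6 and 17.5 CPM in the other astrocytes, and oligodendrocyte markers 185 and 227 CPM (6 and 12 of 12), against 265 and 539.8 CPM. Oligodendrocyte precursor (OPC) markers gave 412 and 299 CPM (5 and 8 of 9) against 255 and 238 CPM in the other astrocytes. Vcan made up 81.6% and 69.9% of them, and Pdgfra and Sox10 were at 0 in mMCAO ipsi and had UMIs in sMCAO ipsi. Neuron markers gave 698 and 583 CPM (11 and 13 of 17, Grin2b), ependymal markers 101 and 214 CPM (2 and 7 of 8, Dnah12), against 88.3 and 144 CPM in the other astrocytes, and lymphocyte markers 25.2 and 2.25 CPM (1 of 8 in each, Bcl11b). By a score from simulated doublets, 0 of 63 and 5 of 133 Cd44/Vim astrocytes were among the 5% of nuclei of their library most like doublets. Of 70546 distinct barcodes, 3015 occurred in 2 or more libraries, 26 of the 203 nuclei had a barcode found in another library, and no barcode belonged to the state in 2 libraries.

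Cd44/Vim astrocytes differed from the other astrocytes of the same infarcted hemispheres in part of the genes of the cytoskeleton, the matrix and the cell cycle, which were higher, and in part of the genes of glutamate and GABA handling and homeostasis, which were lower. UMIs were summed per state in mMCAO ipsi (63 and 226 nuclei) and sMCAO ipsi (133 and 140 nuclei), and 5602 genes were tested with edgeR's quasi-likelihood test with the library as a block. At an adjusted p below 0.05 (Benjamini-Hochberg) and a log2 fold change of 0.6 or more in size, 300 genes were higher, 5.36% of the genes tested, and 225 were lower, 4.02%. The filter on low counts asked for 2 sums at 34.5 CPM or more, so that a gene could enter through the group where it was higher alone. Genes that would also have passed it without the sums of that group are called independently filtered here, a check added after the data had been seen, and they were 192 of the 300 higher and 158 of the 225 lower genes. For the others no p and no standard error (SE) is given. The test has 1 residual degree of freedom, and the gate read the same nuclei, so that genes which vary with the gate genes from nucleus to nucleus were chosen along with them. DESeq2 called 36 of the same genes (23 higher, 13 lower), the test on nuclei of 1000 to 6000 UMIs called 126, and the test without nuclei that held 2 or more UMIs of microglial, endothelial or mural markers, as 10 of 63 and 71 of 133 Cd44/Vim astrocytes did, called 106. Under DESeq2 and in the depth window every gene of the 525 that could be tested kept its direction. DESeq2 read the same sums and the window part of the same nuclei, so this is no independent support.

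None of the 10 genes with the largest increase was independently filtered, so they are described by their levels. Cxcl1, a chemokine for neutrophils, stood at 75.7 CPM in mMCAO ipsi and 47.3 CPM in sMCAO ipsi, with no UMI in the other astrocytes of any library, and was thus at least 11.9-fold higher (a bound from 3 UMIs over the group). Itga5, the fibronectin receptor subunit, stood at 143 and 81.1 CPM against 3.40 and 3.51 CPM in the other ipsi astrocytes, which is 1 UMI in each of their sums. Arntl2, a circadian transcription factor, stood at 210 and 243 CPM against 44.2 and 21.0 CPM (log2 fold change 2.80). The others were Hbegf, a ligand of the EGF receptor (42.0 and 117 against 13.6 and 3.51 CPM), the membrane repair gene Dysf, the mitotic kinesin Kif23, the metalloprotease Adamts7, the kinase scaffold Akap12, Lmna, and Nes (42.0 and 99.1 against 10.2 and 3.51 CPM). The genes were named because they were higher in both libraries, so that their direction there is no further result.

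The actin cytoskeleton list had 12 of 26 tested genes higher, 10 of them independently filtered, and 0 lower, with a median log2 fold change of 0.78 beside -0.00 over all genes tested, and 5 of its 31 genes in the files did not pass the filter on low counts. Actn1, an actin crosslinker, stood at 160 CPM in mMCAO ipsi and 288 CPM in sMCAO ipsi against 40.8 and 35.1 CPM in the other astrocytes. Its log2 fold change was 2.55 ± 0.35 SE (adjusted p = 1.14e-08, edgeR). Vcl, the vinculin of focal adhesions, stood at 1051 and 1279 against 584 and 606 CPM (0.94 ± 0.18), and the filamins Flna and Flnc, the myosins Myh9 and Myo1e, Anxa2, Plec and Pdlim5 were called in the same direction. Actb, Rock2 and Lmna completed the 12. The matrix list had 8 of 18 tested genes higher, 7 of them independently filtered, and 0 lower, with a median of 0.89. Tenascin C (Tnc), a glycoprotein of growing and injured tissue, stood at 488 and 1083 against 170 and 238 CPM (1.88 ± 0.22), fibronectin (Fn1) at 109 and 259 against 37.4 and 38.6 CPM (2.26 ± 0.36) and neurocan (Ncan), a proteoglycan of the glial scar, at 429 and 446 against 166 and 70.1 CPM (1.95 ± 0.25). Vcan, Lamc1 and the integrin subunits Itgav, Itgb1 and Itga5 were the others, and 10 genes of the list did not pass the test. These lists, and the protease, junction and pan reactive lists below, hold genes that the study itself named in these samples. Their counts are not independent evidence of a direction.

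Among proteases, 3 of 12 tested genes were higher, 2 of them independently filtered, and 0 lower. Adam12, a membrane metalloprotease, stood at 799 CPM in both Cd44/Vim sums against 173 and 189 CPM (2.11 ± 0.22, adjusted p = 8.98e-13, edgeR), and Adamts9 and Adamts1 were the others. Of 16 junction genes tested 3 were higher, Tjp1 and Cdh2 among them, 2 were lower, Ctnna2 and Cldn10, and 11 were not called, with a median of -0.04. Cldn10 was not independently filtered. Tjp1, the scaffold of tight junctions, stood at 3598 and 1792 against 1631 and 866 CPM (1.07 ± 0.16). The 8 tested pan reactive astrocyte genes had 4 higher, of which Osmr and Aspg were independently filtered, and 0 lower, with a median of 1.26. The 4 were Hspb1, a small heat shock protein (109 and 259 against 47.6 and 21.0 CPM, log2 fold change 2.45), Osmr, the oncostatin M receptor, Aspg and Nes. Of 15 genes listed for the A1 state of astrocytes 1 was tested, Fkbp5, which was higher, and of 13 A2 genes 3 were tested and Emp1 and S100a10 were higher, and none of these genes was independently filtered. Of the cytokine and NF-kB list, 2 independently filtered genes of the 10 tested were higher besides Cxcl1, the interleukin 1 co-receptor Il1rap (420 and 376 against 153 and 123 CPM, 1.51 ± 0.24) and the adaptor Shc3. Of 11 genes of the gp130 and Stat list Osmr and Socs5 were higher, Socs5 without being independently filtered. Of 12 transcription factors 4 were higher, Arntl2, Klf6, Tead1 and Wwtr1, of which the last pair were independently filtered and act in Hippo signalling (Tead1 496 and 511 against 214 and 189 CPM, 1.30 ± 0.22). No gene of these lists other than the junction list was lower. In the glycolysis list 1 of 11 tested genes was higher, Pfkfb3, a regulator of glycolysis (403 and 462 against 163 and 284 CPM, 0.91 ± 0.23). In the heat shock and redox list it was 1 of 13, the zinc transporter Slc39a14, which was not independently filtered. Under DESeq2 the higher genes numbered 0 in the pan reactive, A1, A2, cytokine, gp130, glycolysis and heat shock lists and 1 each in the protease, junction and transcription factor lists. Without the nuclei that held other cell types' markers they numbered 0 in the pan reactive, A1, A2, gp130, glycolysis and heat shock lists.

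Promoters of the called genes were searched for the AP-1 motif TGANTCA and the Stat motif TTCNNNGAA (both strands, N any base) in RefSeq promoter windows of the GRCr8 assembly, matched by symbol, while the counts rest on mRatBN7.2. TGANTCA was in 19 of 242 promoters of higher genes (7.85%), 6 of 158 of lower genes (3.80%), 197 of 4288 of all genes tested (4.59%) and 2207 of all 27457 promoters (8.04%). The share of the higher genes lay above that of the genes tested and near that of all promoters, and no test was run. TTCNNNGAA was in 8.68%, 8.23%, 6.83% and 9.39% in the same order. Of the genes named above by the size of their increase, Lmna, which codes for the lamins A and C of the nuclear envelope, was the one with TGANTCA in its window, at chr2:176258186-176258485 of GRCr8, minus strand. It is shown with the motif, which starts 6 bases before the gene start, in capitals, and a match is a description of these letters, not of binding.
Lmna: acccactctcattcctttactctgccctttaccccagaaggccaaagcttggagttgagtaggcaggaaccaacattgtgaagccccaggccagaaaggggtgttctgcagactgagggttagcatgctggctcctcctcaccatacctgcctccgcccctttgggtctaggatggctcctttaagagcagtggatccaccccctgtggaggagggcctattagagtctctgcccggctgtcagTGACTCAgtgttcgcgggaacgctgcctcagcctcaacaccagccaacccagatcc
Lmna itself stood at 84.1 and 63.1 CPM in Cd44/Vim astrocytes against 17.0 and 7.01 CPM in the other ipsi astrocytes.

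The summed level of cell cycle genes was higher in Cd44/Vim astrocytes than in the other astrocytes. The list of 38 genes summed to 4581 CPM in mMCAO ipsi and 4670 CPM in sMCAO ipsi, against 2062 and 2250 CPM in the other astrocytes of these libraries, 425 and 375 CPM in mMCAO contra and sMCAO contra, and 328 and 380 CPM in Sham L and Sham R. Both Cd44/Vim sums lay above those of the other ipsi astrocytes, which were themselves above all contra and Sham sums. In Cp and A2m astrocytes the list summed to 1647 CPM in mMCAO ipsi and 3772 CPM in sMCAO ipsi. Against them 1 of 26 tested genes was higher in Cd44/Vim astrocytes and 0 lower (0 and 0 under DESeq2). Of 27 genes tested within the ipsi libraries 14 were higher, 11 of them independently filtered, and 0 lower, with a median log2 fold change of 1.08. Diaph3, a formin of the cytokinetic ring and the most abundant gene of the list, stood at 841 and 633 against 231 and 270 CPM (1.49 ± 0.21, adjusted p = 6.04e-08, edgeR). Cenpf, a kinetochore protein, stood at 286 and 205 against 81.5 and 80.6 CPM (1.53 ± 0.29), Mki67 at 134 and 162 against 91.7 and 59.6 CPM (1.02 ± 0.33) and Top2a, the topoisomerase of replicating chromosomes, at 126 and 254 against 88.3 and 98.1 CPM (1.05 ± 0.29). The count of higher genes was 1 under DESeq2, 4 of 26 in the depth window and 7 without the block.

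The same genes were unevenly spread over nuclei. With a set of 10 mitotic genes (Mki67, Top2a, Cenpf, Cenpe, Aspm, Kif11, Tpx2, Bub1, Knl1 and Anln), chosen after the values had been seen, 19 of 63 Cd44/Vim astrocytes of mMCAO ipsi (30.2%, exact 95% interval 19.2 to 43.0%) and 50 of 133 of sMCAO ipsi (37.6%, 29.3 to 46.4%) held 2 or more UMIs. Among the other astrocytes it was 26 of 226 (11.5%) and 12 of 140 (8.57%) in the ipsi libraries, 2 of 280 and 1 of 186 in the contra libraries, and 0 of 176 and 0 of 130 in Sham, which allow shares of up to 1.70% and 2.31% by the limit of 3 nuclei over the total. Among Cp and A2m astrocytes it was 3 of 21 (14.3%, 3.05 to 36.3%) in mMCAO ipsi and 31 of 127 (24.4%, 17.2 to 32.8%) in sMCAO ipsi. Thinned to 1000 UMIs, with the states kept as gated before thinning, the shares were 29.1% and 25.4% in Cd44/Vim astrocytes against 10.2% and 7.14% in the other ipsi astrocytes, and 0.0256% to 0.531% in neurons. With the states gated after thinning, so that the gate too was read at equal depth, they were 22.4% against 11.5% in mMCAO ipsi and 24.5% against 16.5% in sMCAO ipsi. The gap was thus smaller with the gate at equal depth, most of all in sMCAO ipsi, and most Cd44/Vim astrocytes had fewer than 2 such UMIs. Among Cp and A2m astrocytes gated after thinning the share was 16.7% (2 of 12) in mMCAO ipsi and 10.98% (9 of 82) in sMCAO ipsi. It lay below that of Cd44/Vim astrocytes in both libraries. Against the other astrocytes it was higher in mMCAO ipsi and lower in sMCAO ipsi. At the border of the gate the cell cycle list did not follow the reactive genes evenly: it stood at 3452 CPM with 1 UMI, 794 CPM with 2 and 6366 CPM with 4 or more in mMCAO ipsi, and at 4207, 4458 and 4751 CPM in sMCAO ipsi.

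**Figure D3:**
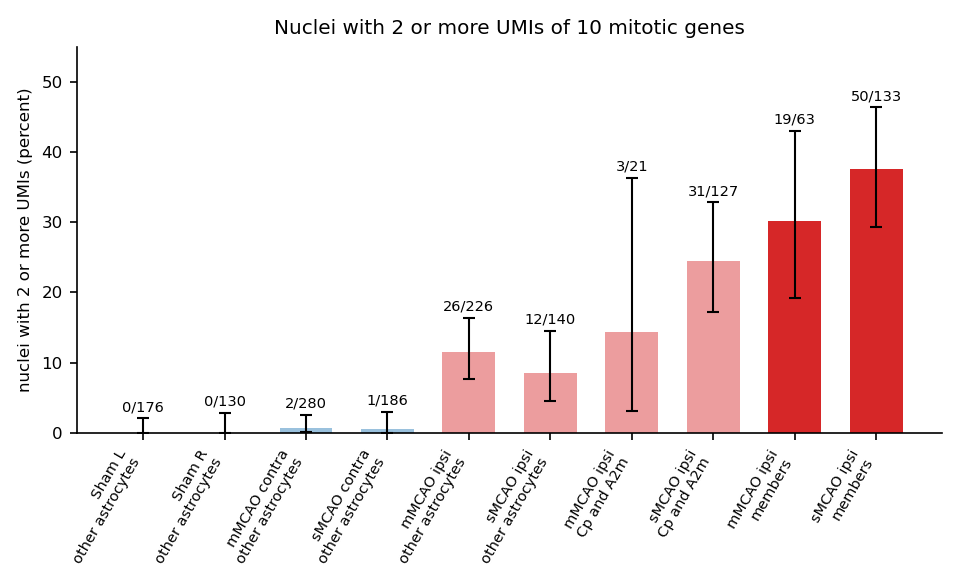
Percent of nuclei with 2 or more UMIs of 10 mitotic genes in other astrocytes, astrocytes with Cp and A2m, and Cd44/Vim astrocytes (members) of each library, with exact 95% binomial intervals and the counts above the bars. The bars of the members reach 30.2% and 37.6%, those of Sham are at 0.

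Part of the genes of astrocyte homeostasis were lower. Of 26 homeostatic genes tested 9 were lower, all independently filtered, and 0 higher (median log2 fold change -0.39). Gpc5, a glypican abundant in astrocytes, stood at 7035 CPM in mMCAO ipsi and 5868 CPM in sMCAO ipsi against 13336 and 10877 CPM in the other astrocytes (-0.93 ± 0.11), the cation channel gene Trpm3 at 1916 and 1178 against 2823 and 3807 CPM (-1.17 ± 0.16), and the glycolytic enzyme Aldoc at 42.0 and 36.0 against 78.1 and 102 CPM (-1.33 ± 0.42). Cdh10, Ndrg2, Acsbg1, Prex2 and Plpp3 were among the others, while 17 genes did not pass the test, so the loss covered part of the list. In the list of glutamate and GABA receptors and amino acid transporters 9 of 20 genes were lower, 6 of them independently filtered, and 1 was higher, with a median of -0.71. The GABA transporter Slc6a11 stood at 50.4 and 104 against 177 and 529 CPM (-2.28 ± 0.27). The AMPA receptor subunit Gria1 stood at 33.6 and 38.3 against 91.7 and 210 CPM (log2 fold change -2.25). The serine transporter Slc7a10 stood at 25.2 and 56.3 against 95.1 and 196 CPM (log2 fold change -1.84). Grin2c, Grik4, Gabrb1, Gabrg1, Slc7a11 and the glutamine transporter Slc38a3 were lower too, and Slc38a2 was the gene that was higher. Gria1, Slc7a10, Grik4 and Slc38a2 were not independently filtered. No gene of the list was higher under DESeq2 or in edgeR with DESeq2 size factors. This list and the homeostatic list also hold genes that the study itself reported as lower in reactive astrocytes of these samples. Their counts are thus not independent evidence of a direction. The metabotropic glutamate receptor Grm5 stood at 3766 and 3179.6 against 3163 and 2639.5 CPM and was not called. Under DESeq2, in the depth window and without the block, the lower genes numbered 3, 4 and 4 in the homeostatic list and 1, 3 and 2 in the list of receptors and transporters, and the higher genes 1, 5 and 5 in the actin list and 2, 5 and 5 in the matrix list. Without the nuclei that held other cell types' markers these 4 counts were 5, 2, 2 and 5.

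Some genes that act at synapses and in axon guidance were lower. Of 17 genes of synapse assembly and adhesion 5 were lower, all independently filtered, and 1 was higher (median -0.44). The neuregulin receptor Erbb4 stood at 210 and 142 against 350 and 789 CPM (-1.89 ± 0.25), and Ntm, an adhesion molecule, at 3849.7 and 2869 against 7332 and 5710.2 CPM (-0.99 ± 0.13), while the synaptogenic glypican Gpc6 stood at 1942 and 2452 against 1227 and 1251 CPM (0.79 ± 0.16). In axon guidance 5 of 23 genes were lower, 3 of them independently filtered, and Nrp2, a receptor of class 3 semaphorins, was higher (193 and 196 against 54.4 and 38.6 CPM, 2.06 ± 0.34). The repellent Slit2 was among the lower ones (16.8 and 9.01 against 54.4 and 59.6 CPM, log2 fold change -2.38) and was not independently filtered. Without the nuclei that held other cell types' markers 1 synapse gene was lower and 1 higher, and in axon guidance 0 were lower and 1 higher. Under DESeq2 1 synapse gene and 0 axon guidance genes were lower and none higher, and edgeR with DESeq2 size factors called 1 axon guidance gene lower. In lipid metabolism 2 of 19 genes were lower, Acsl6 and Apoe. In growth factors Hbegf was higher and Nrg1 and Fgf14 lower of 19, and of 8 cilium genes Dnah9 was lower. Hbegf and Dnah9 were not independently filtered. No gene of the lipid, growth factor and cilium lists was called under DESeq2 or without the nuclei that held other cell types' markers. Among the 10 genes with the largest decrease, Itih3, which codes for a chain that binds hyaluronan, had the largest change, at 84.1 and 126 CPM against 805 and 1392 CPM (-3.43 ± 0.24, adjusted p = 2.04e-22, edgeR). Mpp6, Nnat, Agmo, Prtg, Cacna1d, Gdpd2, Nell1, Cdh18 and Slit2 followed at log2 fold changes of -2.89 to -2.38, and of all 10 Itih3 and Mpp6 were independently filtered. Cdh18 stood at 58.8 against 61.2 CPM in mMCAO ipsi, and its log2 fold change was 0.0042 without sMCAO ipsi, so that its decrease rests on that library. Of 3 neuron markers tested Grin2b and Rims1 were called lower, Rims1 without being independently filtered, and the third had a log2 fold change of 0.42. The summed neuron markers stood at 698 against 1189 CPM in mMCAO ipsi and at 583 against 582 CPM in sMCAO ipsi.

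**Figure D4:**
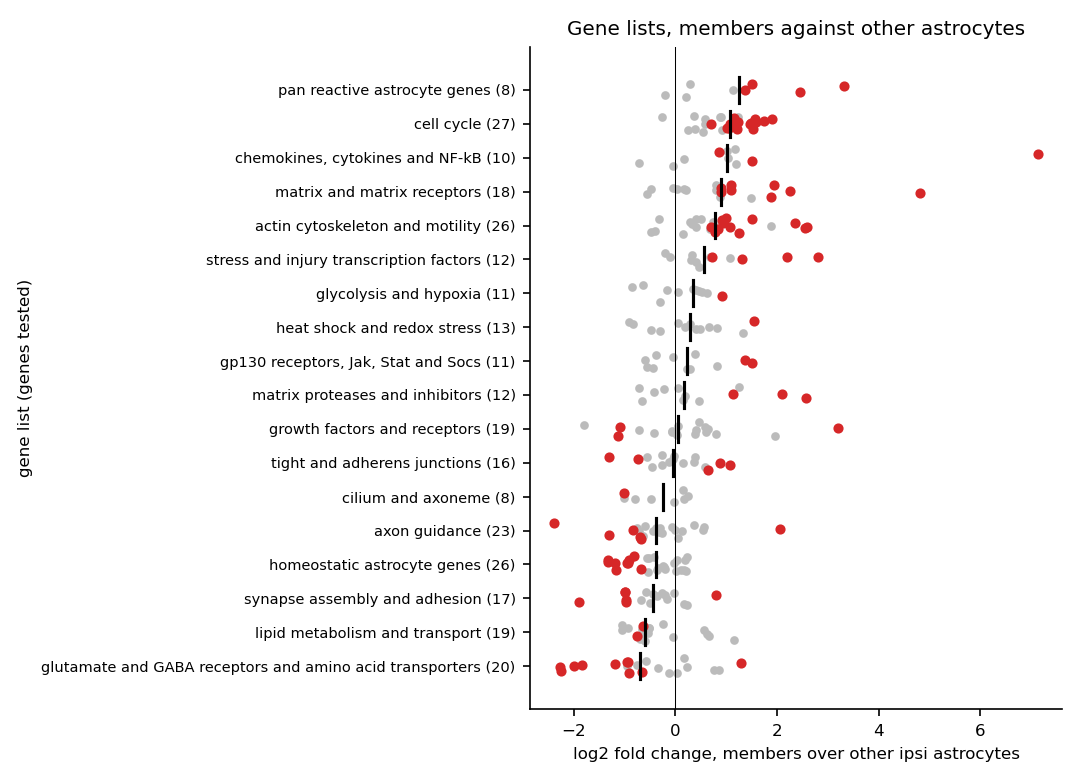
Log2 fold change of each tested gene (dots) between Cd44/Vim astrocytes and the other astrocytes of the MCAO ipsi libraries, by gene list with the number of genes tested, red where called and grey where not, independently filtered or not, with the median as a black bar. Among the lists drawn, those of pathways with at least 5 genes tested, medians run from 1.26 for pan reactive genes to -0.71 for glutamate and GABA receptors and amino acid transporters.

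Against astrocytes of Sham and contra hemispheres, genes of mitosis, the actin cytoskeleton and the matrix were among those higher in Cd44/Vim astrocytes, and homeostatic genes moved in both directions. The 2 Cd44/Vim sums of MCAO ipsi were set against the other astrocytes of Sham and of MCAO contra in 1 edgeR fit over 6 library sums, with 3 residual degrees of freedom and 3986 genes tested. Against Sham, 548 genes were higher, 13.7%, and 504 lower, 12.6%, and against MCAO contra 551 were higher, 13.8%, and 530 lower, 13.3%. Both comparisons use the same Cd44/Vim libraries, and Sham L and Sham R come from the same rats. Independently filtered were 301 and 405 of them against Sham and 282 and 480 against contra. DESeq2 called 523 and 426 genes. With nuclei of 1000 to 6000 UMIs, where Sham R had too few nuclei and was left out, 277 genes were called against Sham and 816 against contra, and 951 of the 986 genes called against Sham that could be tested kept their direction. These counts come from another model and filter than those within the ipsi libraries and are not compared with them.

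Genes of mitosis were absent or nearly so in the control astrocytes. Cenpf had no UMI in Sham or contra astrocytes and was at least 18.6-fold higher in Cd44/Vim astrocytes than in Sham and at least 38.6-fold higher than in contra (a bound from 3 UMIs over the group). Ect2 was at least 16.4-fold and 34.0-fold higher, and Top2a, Mki67, Prc1 and Kif18a at least 14.4-, 11.2-, 11.6- and 14.0-fold higher than in Sham. Of 38 cell cycle genes in the files 21 passed the filter on low counts, all were called higher in both comparisons, and 8 of them had no UMI in Sham and 4 none in contra. Of the 21, 1 was independently filtered in each comparison, so that the count is no support for a direction, and in the depth window 4 of 20 were called against Sham and 20 of 20 against contra.

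Beyond the cell cycle, Arntl2 (no UMI in Sham, 0 and 5.77 CPM in contra) was at least 17.2-fold higher than in Sham, Hspb1, with no UMI in either, at least 13.9- and 29.0-fold higher, and Fn1 and Osmr at least 13.9- and 10.3-fold higher than in Sham. Itga5 was at least 17.6-fold higher than in contra. Aspg, an asparaginase, stood at 0 and 11.5 CPM in Sham, 0 in contra and 109 and 164 CPM in Cd44/Vim astrocytes. The actin list had 14 of 19 genes higher against Sham and 16 of 19 against contra, of which 7 and 8 were independently filtered, and none lower. Against Sham the count was 9 under DESeq2, 4 of 21 in the depth window and 10 of 24 without Sham L or without Sham R. The matrix list had 10 and 8 of 16 higher, of which 6 and 4 were independently filtered. Against Sham the count was 5 under DESeq2, 5 in the depth window and 5 of 19 without Sham L, and the fibrillar collagen Col27a1 was lower in both (92.5 and 119 CPM against 321 and 219 CPM in Sham and 332 and 265 CPM in contra). Adam12 stood at 14.3 and 46.0 CPM in Sham, 10.0 and 23.1 CPM in contra and 799 CPM in both ipsi sums (2 and 4 UMIs in Sham, 3 and 4 in contra, so that it was not independently filtered), with 173 and 189 CPM in the other ipsi astrocytes between them. Cdk14, a kinase of the Wnt pathway, showed the same order at 1379 and 1761 CPM, 336 and 238 CPM in the other ipsi astrocytes and 110 to 184 CPM in Sham and contra.

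The homeostatic list was split. Against Sham 8 of 26 tested genes were lower (among them Gpc5, Cdh10, Trpm3, Aldoc, Acsbg1, Prex2 and Luzp2) and 5 were higher, the chaperone Clu (437 and 570 against 121 and 138 CPM, 2.03 ± 0.27), the bicarbonate transporter Slc4a4 (2899.9 and 2943 against 1383 and 1185 CPM, 1.19 ± 0.17), Nhsl1, Cst3 and Mlc1. Without Sham L the counts against Sham were 6 lower and 2 higher, and in the depth window 5 and 3. Against contra 11 were lower and Clu and Slc4a4 higher. Among receptors and transporters 9 of 20 were lower and 3 higher against Sham, and 11 and 4 against contra. The counts were 7 lower and 2 higher against Sham and 8 and 1 against contra under DESeq2, and 4 and 1 against Sham in the depth window. There Slc6a11 changed sign, to a log2 fold change of 0.38. Grm5, which stood at 969 and 966 CPM in Sham and 1145 and 1142 CPM in contra, was higher at 3766 and 3179.6 CPM (1.85 ± 0.18 and 1.59 ± 0.17), with the other ipsi astrocytes at 3163 and 2639.5 CPM. Fabp7, a fatty acid carrier of radial glia, stood at 160 and 207 CPM against 21.4 and 0 CPM in Sham, which is 3 UMIs in all. The sterol regulator Srebf2 was lower against Sham, as was Vegfa (75.7 and 96.8 against 321 and 357 CPM, -1.86 ± 0.28). Of 17 lipid genes tested against Sham 7 were lower, 3 under DESeq2 and 2 of 18 in the depth window. Fabp7 and Apoe were higher, and of these Apoe was independently filtered. Apoe was thus higher than in Sham but lower than in the other ipsi astrocytes. Of the 17 genes of synapse assembly 8 were lower against Sham and 9 against contra, with Sparc and Gpc6 higher in both. Neuron markers were lower too, 5 of 5 tested against Sham and 4 of 5 against contra. The part of neuronal RNA in the receptor and synapse counts was not tested.

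The genes with the largest decrease against Sham were Car10, Zfp804b, Zfp804a, Thsd7b, Hecw1, Pex5l, Trank1, Galntl6, Kcnh7 and Arpp21, with log2 fold changes of -6.67 to -4.54. Zfp804a, Thsd7b, Hecw1 and Trank1 were not independently filtered. Kcnh7, a potassium channel gene, stood at 421 and 380 CPM in Sham, 184 and 190 CPM in contra, 126 and 31.5 CPM in the other ipsi astrocytes and 42.0 and 9.01 CPM in Cd44/Vim astrocytes. The summed neuron markers were also highest in Sham, with 2680 and 2473 CPM there, 1668 and 1771 CPM in contra, 1189 and 582 CPM in the other ipsi astrocytes and 698 and 583 CPM in Cd44/Vim astrocytes. In both states of sMCAO ipsi Kcnh7 lay below 34.5 CPM, the cut of the filter within the ipsi libraries. Its levels there rest on few UMIs. Astrocytes of Sham also held the fewest UMIs per nucleus, and the part of neuronal RNA in these decreases was not tested. Against contra the largest decreases were in Car10, Pex5l, Zfp804b, Thsd7b, Adam11, Hecw1, Spock3, Epb41l4b, Itih3 and Slit3. Itih3 stood at 1588 and 1292 CPM in contra and 1126 and 920.3 CPM in Sham against 84.1 and 126 CPM (-3.66 ± 0.24, adjusted p = 1.15e-09, edgeR), and it was also the gene with the largest decrease within the ipsi libraries.

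**Figure D5:**
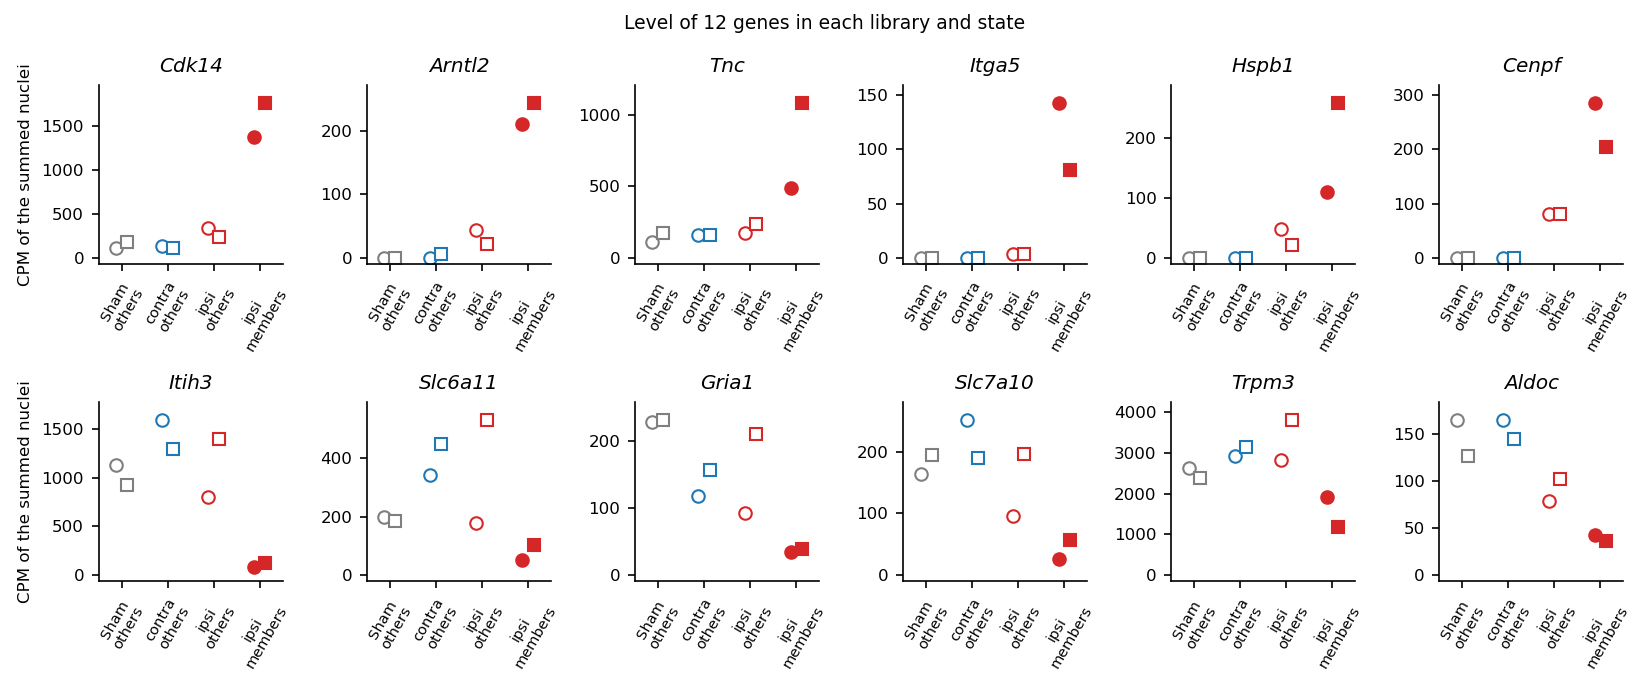
CPM of 12 genes, chosen after their values had been seen, in the summed other astrocytes of Sham, MCAO contra and MCAO ipsi (open) and the Cd44/Vim astrocytes of MCAO ipsi (filled), on linear axes that differ by gene. Circles are Sham L or mMCAO and squares Sham R or sMCAO, so each point is 1 library. Cdk14, Arntl2, Tnc, Itga5, Hspb1 and Cenpf are highest and Itih3, Slc6a11, Gria1, Slc7a10, Trpm3 and Aldoc lowest in the filled points.

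The other reactive state gated here was the astrocytes with 2 or more UMIs of Cp (ceruloplasmin) and A2m, of which mMCAO ipsi held 21 and sMCAO ipsi 127. These nuclei shared much of the gate: Cd44 was detected in 42.9% and 57.5% of them and Vim in 47.6% and 74.0%. Gfap stood at 6620 and 6797 CPM in them against 3598 and 4560 CPM in Cd44/Vim astrocytes. Vim stood at 633 and 1266 against 630 and 811 CPM, and Cd44 at 760 and 640 against 1244 and 779 CPM. Between the states 29 of 4941 tested genes were higher in Cd44/Vim astrocytes, 0.587%, and 38 lower, 0.769%, with the library as a block and 1 residual degree of freedom. Independently filtered were 24 of the 29 and 23 of the 38. DESeq2 called 2 genes and the test without the block 5. Transferrin (Tf), an iron carrier, stood at 33.6 CPM in mMCAO ipsi and 124 CPM in sMCAO ipsi in Cd44/Vim astrocytes against 760 and 530 CPM. Its log2 fold change was -2.58, and it was among the 2 genes of DESeq2, although it was not independently filtered. The sulfatase Sulf1 (42.0 and 60.8 against 317 and 219 CPM, -2.04), Aebp1 (-1.95), Lrrc55 (-2.83), Disp3, Prkcz, C1galt1, Syndig1, Dnai1 and Thsd7a were the other genes with the largest decrease. Of these Aebp1 alone was independently filtered. The genes with the largest increase were Prkcb (134 and 155 against 31.7 and 28.1 CPM, 2.42), Col5a1, Rgs7bp, Cttnbp2nl, Scfd2, Gabrg3, Cdk14 (1379 and 1761 against 570 and 516 CPM, 1.64 ± 0.28), Rerg, Adam12 (799 and 799 against 285 and 284 CPM, 1.52 ± 0.30) and Rab27b. Prkcb, Col5a1, Rgs7bp, Cttnbp2nl and Scfd2 were not independently filtered.

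The lists set the states apart in few genes. Il1rap and Shc3 were higher in Cd44/Vim astrocytes, 2 of 11 cytokine genes tested. The axonemal dyneins Dnah9 and Dnah12 were lower, 2 of 8 cilium genes, Dnah9 without being independently filtered. Dnah12 is also an ependymal marker, and ependymal markers summed to 697 and 303 CPM in the Cp and A2m astrocytes against 101 and 214 CPM. Clu, Sema5a and Slc38a1 were lower and Gpc6 and the replication gene Pola1 higher. No gene of the actin list (25 tested) or the matrix list (19 tested) was called, with medians of 0.11 and 0.06 beside 0.02 over all genes, which with sums of 21 nuclei does not show that they were alike. Mitotic UMIs of 2 or more were found in 3 of 21 (14.3%, 3.05 to 36.3%) and 31 of 127 (24.4%, 17.2 to 32.8%) Cp and A2m astrocytes. With nuclei thinned to equal depth and gated again, these shares were 16.7% (2 of 12) in mMCAO ipsi and 10.98% (9 of 82) in sMCAO ipsi. Cd44/Vim astrocytes gated in the same way stood at 22.4% and 24.5%.

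Between moderate and severe infarction there is 1 library a level, so the values are given without a test. Ccl2 stood at 58.8 CPM in mMCAO ipsi (exact Poisson 95% interval 23.7 to 121) and 320 CPM in sMCAO ipsi (269 to 377), while Cd44 stood at 1244 CPM (1052 to 1461) and 779 CPM (699 to 866) and Vim at 630 CPM (496 to 790) and 811 CPM (729 to 899). At 1000 UMIs a nucleus Ccl2 was in 4.08% and 31.6% of nuclei gated after thinning, and in 3.64% and 17.7% of those gated before it. Of 1182 genes with at least 20 UMIs in both sums, 8 were over 2-fold higher in sMCAO ipsi and 38 in mMCAO ipsi. This rule of size was chosen after the values had been seen. The sums held 118969 UMIs in mMCAO ipsi and 444075 in sMCAO ipsi, so 20 UMIs are a higher CPM in mMCAO ipsi. Genes low in mMCAO ipsi were thus left out more readily, and the counts of 8 and 38 are not compared. Ccl2, a gate gene with 7 UMIs in mMCAO ipsi, was not among the genes counted. The 8 were Shroom3 (219 and 622 CPM), Rbms3 (286 and 790 CPM), Tnc (488 and 1083 CPM), Prdm16, Gcnt2, the coagulation tissue factor F3 (202 and 423 CPM), Cst3 and Dennd2b. Among the genes higher in mMCAO ipsi were the neuronal membrane genes Dpp10 (546 and 47.3 CPM), Kcnip4 (530 and 74.3 CPM) and Kcnd2 (857 and 266 CPM), as well as Adam9 (210 and 72.1 CPM). In the other astrocytes Cst3 stood at 292 and 627 CPM, a ratio of 2.15 between the libraries (1.65 to 2.81) beside 2.06 in Cd44/Vim astrocytes (1.35 to 3.26). The ratios of the other 7 genes there lay between 0.718 and 1.40, with intervals that all included equal levels. Dpp10 differed in the same direction in the other astrocytes (625 and 123 CPM) and Kcnd2 in the opposite one (1138 and 1816 CPM). Depth, animals and severity differ together between these libraries and cannot be told apart.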

How the data were processed

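Nuclei were isolated from pooled brain hemispheres and sequenced with a droplet-based 5′ kit. The authors aligned the reads with Cell Ranger 7.0.0 to mRatBN7.2 (per the submitters' processing notes), with intronic reads included, and the deposited values are whole, unnormalized UMI counts of 30560 genes per called nucleus. Their later removal of free RNA and doublets is not part of these counts.

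UMIs were summed per library and state wherever a library held at least 10 nuclei of each state, and the sums went into edgeR 4.0.16 under R 4.3.3 (filterByExpr, TMM normalization, quasi-likelihood F test, Benjamini-Hochberg adjustment over all genes tested). The 15 gate genes were left out of the tests and kept in library sizes. Calls needed an adjusted p below 0.05 and a log2 fold change of 0.6 or more in size. Both states of a library share animals and preparation, so comparisons within the infarcted hemispheres used the library as a block. The contra and ipsi libraries of a severity also come from the same rats. Members could not be compared between conditions, nor the difference between hemispheres tested, since no library outside MCAO ipsi held more than 5. DESeq2 1.42.0, TMM against DESeq2 size factors, no filter on low counts, stricter gates, a depth window of 1000 to 6000 UMIs, removal of doublet-like nuclei (the 5% per library nearest to simulated doublets by 30 neighbours on 30 components) and of nuclei with other cell types' markers, and leaving out libraries were the alternatives. Whether a gene would have passed the filter on low counts (10 counts in a library of median size, in 2 sums) without the group where it was higher was checked after the data had been seen. The fit was tested on simulated data with known changes, and the outcome is not reported here. Figures, gates and sums were made in Python 3.11.15 (numpy 2.4.6, scipy 1.17.1, pandas 2.3.3), with limma 3.58.1 under edgeR.

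Genes named by size were the 10 called genes with the largest increase and the 10 with the largest decrease that had a gene symbol, changed the same way in every library or did not overlap between groups, and reached a mean of at least 50 CPM where higher. Called list members were named as well, except for some that are not reported here. The nuclei, gene lists and tests were chosen with earlier results of these data known. P-values measure the spread between libraries of pooled rats, not between animals.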

Additional observations from a re-analysis of the deposited data

How the results depend on the processing

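Within the infarcted hemispheres, the 525 calls became 36 with DESeq2, 335 with no filter on low counts, 106 without nuclei that held other cell types' markers, 126 in nuclei of 1000 to 6000 UMIs and 142 with no replicate block, that is without the library in the model, and they stayed at 476 to 608 in the other settings. Against Cp and A2m astrocytes, 67 calls became 2 with DESeq2 and 5 with no replicate block, a fit added after the data had been seen. Against Sham, 1052 calls became 523 with DESeq2, 277 in the depth window, which moved the median log2 fold change of all genes to 0.29 (0.22 with no filter on low counts), and 646 (without Sham L) to 1269 when 1 library was left out. Against contra, 1081 calls became 426 with DESeq2 and 670 (without sMCAO ipsi) to 1303 when 1 library was left out, and 1126 with the rat pool as a replicate block. Leaving out an ipsi library within the infarcted hemispheres left no residual degrees of freedom, so these fits gave values and no test.

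The log2 fold change of 4 named genes reversed: Cdh18 (0.0042) without sMCAO ipsi (-3.88 without mMCAO ipsi), and against Sham in the depth window Plxna4 (1.06), Slc6a11 (0.38) and Plec (-0.24), where 951 of 986 tested calls kept their direction. The cause was not tested. With at least 3 UMIs of the reactive genes, 0 astrocytes of Sham L or sMCAO contra were left, and the share of astrocytes was 13.9% with moderate and 25.8% with severe infarction (0.332% and 1.19% of all nuclei). Thinned to 1000 UMIs and gated again, it was 0 in Sham L and 24.3% of astrocytes in sMCAO ipsi. Without nuclei that held other cell types' markers it was 28.1% of astrocytes and 0.716% of nuclei in sMCAO ipsi. Of the values of single genes within the infarcted hemispheres, 1075 kept direction and call, 334 kept direction but lost the call and 95 moved with no test. Against Cp and A2m astrocytes 45 kept both, 53 lost the call and 18 moved with no test, and against Sham and contra 4302 kept both and 470 lost the call. Pools of 3 or 4 rats, 21 to 280 nuclei a sum and the shallow Sham astrocytes limit these comparisons.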
